A study of Mus musculus with 4 samples.

Results

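Npy, Camk2a, Map2, Rbfox3, Cdh19, S100b, Stmn2, Mbp and Thy1, which are widely used as markers of neurons and glia, were followed in mouse mammary tumours. These genes were picked by symbol, 9 of the 23238 symbols in the count tables, because earlier results of these data showed them going different ways between 2 genotype labels. Differences of these 9 between the genotypes are therefore given as a description, with no test. RNA sequencing was done on 4 tumour samples from 14-week-old female FVB mice, 2 labelled Nr1d1-/-;PyMT (Nr1d1 null) and 2 labelled Nr1d1+/+;PyMT (Nr1d1 wild type). All 4 carry PyMT, the polyoma virus middle T oncogene, which transforms mammary epithelium. The product of Nr1d1 is REV-ERBα, a clock-controlled nuclear receptor and transcriptional repressor. The labels give neither the promoter of the oncogene nor the exons removed from Nr1d1, and whether each replicate is a different animal is not said, so the spread behind every p-value may be technical.

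The 9 genes belong to different parts of the nervous system. Npy encodes neuropeptide Y, a peptide transmitter of central neurons and of sympathetic nerves, which acts on G-protein-coupled receptors. Camk2a, Map2, Rbfox3 and Stmn2 encode a synaptic protein kinase, a dendritic microtubule-binding protein, the nuclear splicing factor known as NeuN and a microtubule-destabilising stathmin of growing axons. Cdh19, S100b and Mbp mark glia: Cdh19 is a cadherin of Schwann cell precursors, S100b a calcium-binding protein of astrocytes and Schwann cells, and Mbp the myelin basic protein. Thy1 encodes a cell-surface glycoprotein that neurons share with T cells and fibroblasts, and Npy, S100b and Mbp transcripts are likewise made by some cells outside nerves. In bulk tumour RNA, more cells of a type and more RNA per cell cannot be told apart.

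Total counts were 15905404 and 18017279 in the libraries labelled Nr1d1-/- and 19116279 and 17768820 in those labelled Nr1d1+/+ (replicates 1 and 2 of each). Scaled by these totals alone, a floor of 3 counts was 0.157 to 0.189 CPM. Levels below are in CPM, a gene's count scaled to a common library total with TMM factors, and each log2 fold is Nr1d1-/- over Nr1d1+/+. With those factors, 3 counts were 0.22 CPM in Nr1d1-/- replicate 1 and 0.142 CPM in Nr1d1+/+ replicate 1. Nr1d1 itself was not clearly lower under the null label, at 10.6 and 12.8 CPM in the libraries labelled Nr1d1-/- against 20.2 and 10.3 CPM in those labelled Nr1d1+/+ (log2 fold -0.37, SE 0.35, edgeR adjusted p = 0.436), and the log2 fold was 0.15 without Nr1d1+/+ replicate 1. Directions therefore rest on the sample labels alone. Over all 14801 tested genes, 33.9% passed an edgeR adjusted p of 0.05 (16.5% higher and 17.3% lower under the null label), and for 70.5% the CPM values of both genotypes did not overlap (34.4% higher and 36.2% lower). Nr1d1-/- replicate 1 stood apart in skeletal muscle genes: the 12 listed ones summed to 902 CPM there and 31.0 CPM in Nr1d1-/- replicate 2, against 24.6 and 22.4 CPM in the Nr1d1+/+ libraries.

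All 9 genes passed the filter on low counts, and 6 of them also passed the edgeR threshold, 3 higher and 3 lower, a count that their choice fixes and that is read no further beside the 33.9% above. The genes with higher levels in the libraries labelled Nr1d1-/- were Npy, Camk2a and S100b, and those with lower levels were Cdh19, Map2 and Rbfox3. Stmn2 was low everywhere, while Mbp and Thy1 differed least. The values of both genotypes did not overlap for 8 of the 9, 4 higher and 4 lower, beside 70.5% of all tested genes (34.4% higher and 36.2% lower). The choice of the genes bears on this count too, and it is read no further.

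**Figure D1:**
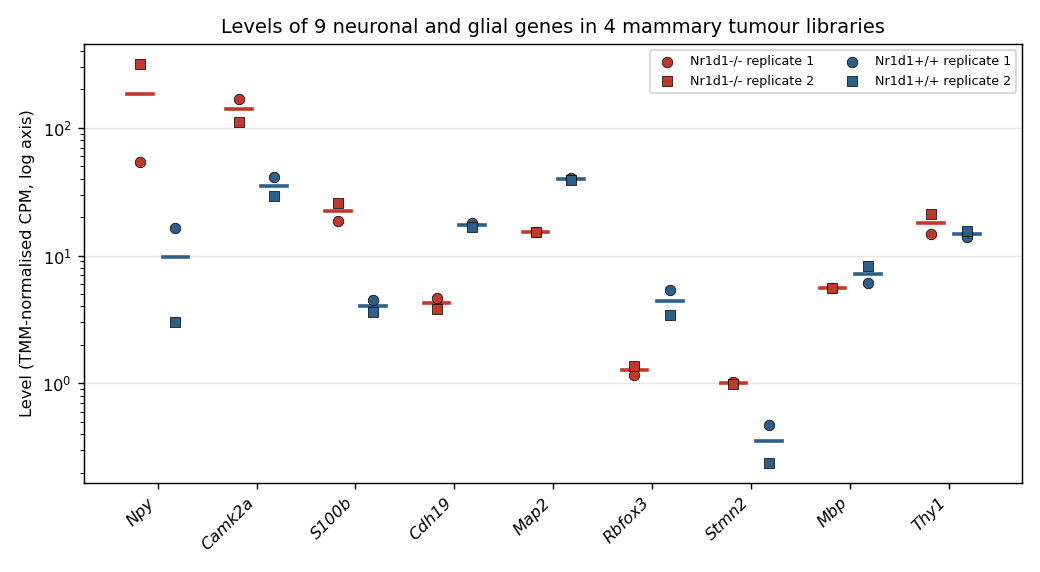
TMM-normalised CPM (log axis) of the 9 genes, with Nr1d1-/- libraries in red at the left of each pair and Nr1d1+/+ libraries in blue at the right; circles are replicate 1, squares replicate 2 and bars the mean of 2. Npy spans 3.02 to 316 CPM over the libraries, Map2 lies near 15 CPM in both Nr1d1-/- libraries and near 40 CPM in both Nr1d1+/+ libraries, and only the Thy1 values of both genotypes overlap.

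Npy lies on chromosome 6 from 49822710 to 49829507 on the plus strand (GRCm38). It had 53.6 and 316 CPM in the libraries labelled Nr1d1-/- (731 and 5095 counts), against 16.5 and 3.02 CPM in those labelled Nr1d1+/+ (349 and 63 counts). Both Nr1d1-/- values were above both Nr1d1+/+ values, but the 2 libraries of each label also lay far apart, 5.90-fold under the null label and 5.47-fold under the wild-type label. The means were 185 ± 186 CPM for Nr1d1-/- and 9.76 ± 9.54 CPM for Nr1d1+/+ (SD, n = 2 each), so that the SD was about as large as the mean in both groups. The log2 fold of 4.24 was 2.46 without Nr1d1-/- replicate 2 and 5.91 without Nr1d1+/+ replicate 1.

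Camk2a lies on chromosome 18 from 60925618 to 60988152 on the plus strand. It had 167 and 111 CPM in the libraries labelled Nr1d1-/-, against 41.4 and 29.2 CPM in those labelled Nr1d1+/+. The lowest Nr1d1-/- library was above the highest Nr1d1+/+ library, and the higher of the Nr1d1-/- values came from the library with the skeletal muscle counts. The means were 139 ± 39.6 CPM and 35.3 ± 8.69 CPM (SD, n = 2 each), a log2 fold of 1.98, and the log2 fold was 1.66 without that library. S100b lies on chromosome 10 from 76253853 to 76261159 on the plus strand, within the span of Dip2a on the opposite strand, with which it shares no exonic base. Its level was 18.7 and 25.9 CPM in the libraries labelled Nr1d1-/-, against 4.49 and 3.64 CPM in those labelled Nr1d1+/+. Here the libraries of a label lay close together, 1.39-fold and 1.24-fold apart, and the means were 22.3 ± 5.12 CPM and 4.07 ± 0.605 CPM, a log2 fold of 2.46.

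Cdh19 is a minus-strand gene of chromosome 1 (110888326 to 110977584). It had 4.62 and 3.85 CPM in the libraries labelled Nr1d1-/-, against 17.9 and 16.9 CPM in those labelled Nr1d1+/+, with means of 4.23 ± 0.55 CPM and 17.4 ± 0.728 CPM (SD, n = 2 each) and a log2 fold of -2.04. Map2, on chromosome 1 from 66175273 to 66442583 on the plus strand, had 15.2 and 15.4 CPM in the Nr1d1-/- libraries, against 40.4 and 39.0 CPM in the Nr1d1+/+ libraries. No other of the 6 genes that passed was as even within both labels: its libraries differed 1.01-fold and 1.04-fold, and the log2 fold was -1.38. Rbfox3, a minus-strand gene of chromosome 11 (118489762 to 118911597), had 1.17 and 1.37 CPM (16 and 22 counts) in the Nr1d1-/- libraries, against 5.35 and 3.40 CPM (113 and 71 counts) in the Nr1d1+/+ libraries. Both Nr1d1-/- values were below both Nr1d1+/+ values, with means of 1.27 ± 0.136 CPM and 4.37 ± 1.38 CPM and a log2 fold of -1.77.

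Stmn2, on chromosome 3 from 8509360 to 8561606 on the plus strand, was near the limit of detection. It had 14 and 16 counts in the Nr1d1-/- libraries (exact Poisson 95% intervals 7.65 to 23.5 and 9.15 to 26.0, counting error only), against 10 and 5 counts in the Nr1d1+/+ libraries (4.79 to 18.4 and 1.62 to 11.7). As raw counts, before any scaling, all 4 intervals overlap with each other. The log2 fold of 1.48 is on scaled levels and rests on these low counts, and overlap of the intervals does not test it. Mbp, on chromosome 18 from 82475146 to 82585637 on the plus strand, had 5.57 and 5.58 CPM in the Nr1d1-/- libraries, against 6.10 and 8.24 CPM in the Nr1d1+/+ libraries. Its log2 fold was -0.36, and it was -0.60 without Nr1d1+/+ replicate 1 and -0.14 without Nr1d1+/+ replicate 2. Thy1, on chromosome 9 from 44043384 to 44048579 on the plus strand, had 14.8 and 21.0 CPM in the Nr1d1-/- libraries, against 14.0 and 15.5 CPM in the Nr1d1+/+ libraries. These ranges overlapped, and the log2 fold of 0.29 became -0.19 after removal of GC and length trends and -0.091 when libraries were scaled by size alone.

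**Figure D2:**
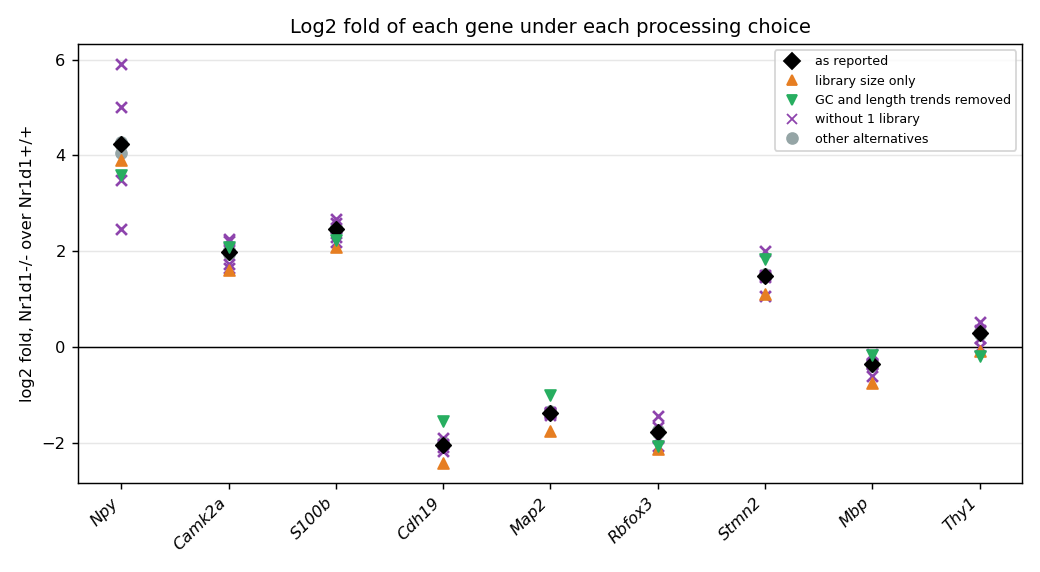
Log2 fold (Nr1d1-/- over Nr1d1+/+) of each gene as reported (black diamonds) and under each alternative: library size only, GC and length trends removed, 1 library left out, and the rest in grey. Npy spreads from 2.46 to 5.91. Only Thy1 lies on both sides of 0, from -0.19 to 0.51, and every other gene keeps its sign under every alternative drawn.

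Levels can be set between genes only per length, as CPM per kilobase of annotated exon (GENCODE M21 exon union). On that scale the order in the libraries labelled Nr1d1-/- was Npy (mean 327), Camk2a (18.7), S100b (15.0), Thy1 (5.98), Cdh19 (0.989), Map2 (0.929), Mbp (0.659), Rbfox3 (0.218) and Stmn2 (0.18). The ranges of Camk2a and S100b overlapped there, as did those of Cdh19 and Map2. In the libraries labelled Nr1d1+/+ the order was Npy (17.3), Thy1 (4.92), Camk2a (4.73), Cdh19 (4.06), S100b (2.74), Map2 (2.41), Mbp (0.847), Rbfox3 (0.752) and Stmn2 (0.0636). In that order the ranges of Npy and Camk2a overlapped, as did those of Thy1 and Camk2a, Camk2a and Cdh19, S100b and Map2, and Mbp and Rbfox3. Per length, Cdh19 thus stood beside Camk2a under the wild-type label and well below it under the null label.

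Properties that did not enter the choice differed widely among the 9 genes. The exon union of Npy was 566 bases and that of S100b 1484 bases, shorter than in all but 1.56% and 8.71% of the tested genes, while that of Map2 was 16449 bases, longer than in 98.2% of them. Cdh19 had 37.4% GC in its longest transcript, less than all but 1.43% of tested genes, and Rbfox3 had 58.6%, more than 92.3% of them. Removing the trends of the fold with GC content and length changed the genes called lower to 1708, beside 2565 as reported. With both trends removed, the log2 fold was 3.59 for Npy, 2.23 for S100b, -1.55 for Cdh19 and -1.01 for Map2, each nearer to 0 than as reported, and 2.08 for Camk2a and -2.07 for Rbfox3, each farther from 0.

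Of the 9 genes, 4 had an entry among the RefSeq promoters (GRCm38.p6), and the bases upstream of the start of 3 of them are shown because they differ in composition and their genes do not share a direction. Capitals mark the GC box GGGCGG on either strand, the letters bound by SP1-type factors.
Npy, chr6:49822460-49822709, plus strand: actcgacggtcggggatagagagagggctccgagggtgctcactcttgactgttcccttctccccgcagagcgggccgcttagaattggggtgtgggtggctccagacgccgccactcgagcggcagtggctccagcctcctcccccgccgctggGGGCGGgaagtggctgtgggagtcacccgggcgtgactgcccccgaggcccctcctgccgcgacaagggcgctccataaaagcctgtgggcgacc
S100b, chr10:76253586-76253835, plus strand: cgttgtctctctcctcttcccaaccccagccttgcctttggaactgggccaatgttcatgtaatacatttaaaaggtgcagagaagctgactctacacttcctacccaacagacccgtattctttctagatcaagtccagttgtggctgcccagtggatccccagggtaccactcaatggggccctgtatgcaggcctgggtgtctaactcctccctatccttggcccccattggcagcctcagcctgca
Map2, chr1:66175079-66175272, plus strand: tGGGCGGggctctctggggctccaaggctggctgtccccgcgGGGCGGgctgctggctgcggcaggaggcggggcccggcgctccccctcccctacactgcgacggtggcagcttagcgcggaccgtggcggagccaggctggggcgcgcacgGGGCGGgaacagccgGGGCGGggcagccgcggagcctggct
The Npy window had 69.2% GC, 21 CG dinucleotides and 1 GC box, that of S100b 53.6% GC, 2 CG dinucleotides and no GC box, and the shorter Map2 window 79.4% GC, 22 CG dinucleotides and 4 GC boxes. As these 3 were shown because they differ in composition, the unlike sequences of Npy and S100b follow from that choice. Map2, in its shorter window, was closer to Npy in GC content than S100b was. A link of sequence to direction was not tested. In the 250 bases upstream of the RefSeq start of Npy, S100b, Map2 and Rbfox3, neither the core letters AGGTCA of the element bound by REV-ERB and ROR receptors nor the E-box CACGTG of clock activators was found on either strand. These letters were present in 14.0% and 6.02% of all 32851 upstream windows of that length, and the GC box was present in 32.7%. GGACAG, part of the element bound by REST, was found once, upstream of Map2, and in 18.7% of all windows. No motif overlapped another in these windows, and the absence of the letters says nothing about binding elsewhere.

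The label of neurons and glia was then set against defining markers, which differed in level. Of 29 pan-neuronal genes other than the 9, 17 had enough counts to be tested and 11 stayed under 1 CPM in every library, so the list as a whole was partly detected. Several markers that define neurons were at or near 0. Syt1, the calcium sensor of synaptic vesicles, had 0 counts in both Nr1d1-/- libraries, against 0 and 1 in the Nr1d1+/+ libraries. Tubb3, the neuronal tubulin, had 4 and 7 counts in the Nr1d1-/- libraries, against 5 and 10 in the Nr1d1+/+ libraries. The noradrenergic markers Th and Dbh had at most 2 counts in any library, and the axonal filament gene Prph had 2 and 12 counts in the Nr1d1-/- libraries, against 0 in both Nr1d1+/+ libraries. Snap25, a vesicle fusion protein, was detected in every library, with 10.8 and 5.58 CPM in the Nr1d1-/- libraries against 4.73 and 4.50 CPM in the Nr1d1+/+ libraries (log2 fold 0.82, SE 0.40, edgeR adjusted p = 0.145). It passed without Nr1d1-/- replicate 2 (edgeR adjusted p = 0.0302) and with GC and length trends removed (0.0412).

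Glial markers were split. Mog, of oligodendrocyte myelin, had no count in any library, Olig2 had a single count in all, and the astrocyte markers Gfap and Aqp4 stayed under 1 CPM throughout. Sox10, a transcription factor of neural crest and Schwann cells that mammary epithelium also makes, was high and even, at 247 and 251 CPM in the Nr1d1-/- libraries against 270 and 260 CPM in the Nr1d1+/+ libraries (log2 fold -0.09, SE 0.16, edgeR adjusted p = 0.706). It was called lower with GC and length trends removed (log2 fold -0.61, edgeR adjusted p = 0.0283) and when scaled by library size alone (-0.47, 0.0449). With some defining markers detected and others at or near 0, the 9 genes are called by their names, and whether neurons or glia were present was not tested.

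**Figure D3:**
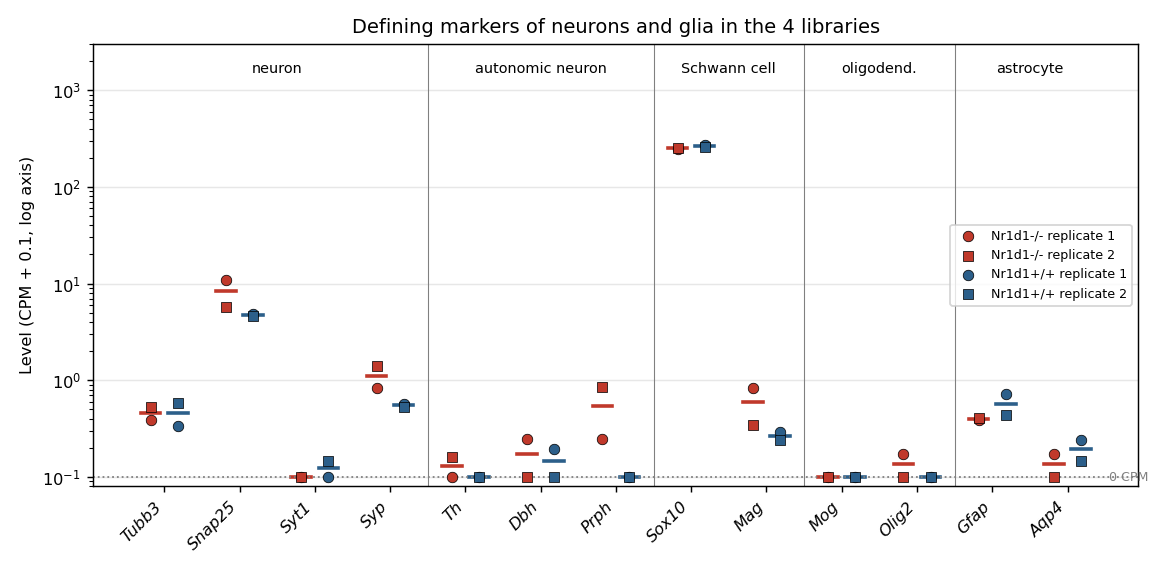
CPM + 0.1 (log axis) of 13 defining markers in the Nr1d1-/- libraries (red, left of each pair) and the Nr1d1+/+ libraries (blue, right); bars are means of 2 and the dotted line is 0 CPM. Sox10 stands at 247 to 270 CPM, and most other markers lie under 1 CPM, with Mog at 0 in all 4.

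The 7 lists of neuron and glia genes held 121 genes other than the 9, and 63 were tested. Rises numbered 21, with 1 fall and 41 genes short of the threshold. That is 34.9% called, nearly all of them rises, beside 33.9% of all tested genes (16.5% higher and 17.3% lower). The median log2 fold was 0.82 beside -0.01 for all tested genes. This median was larger in the skeletal muscle (5.78), basal (1.40), adipocyte (1.36), smooth muscle (1.28) and endothelial (1.23) lists given below. It was smaller in the macrophage (0.34), fibroblast (0.13), melanocyte (0.03), luminal (-0.09) and T cell (-0.15) lists. Under 1 CPM in every library were 53 of the 121, and 11 had no count at all. Without Nr1d1-/- replicate 1, the library with the skeletal muscle counts, 14 rose and 2 fell. Without Nr1d1+/+ replicate 2, 10 rose and 1 fell, and without Nr1d1-/- replicate 2, 25 rose and 4 fell. Among the 21 that rose, 19 were higher in Nr1d1-/- replicate 1 than in replicate 2, beside 68.8% of all genes that rose.

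Among pan-neuronal genes, there were 6 rises and no fall in 17 tested. Ncam1, a neural adhesion molecule that muscle also makes, rose to 129 and 57.6 CPM in the Nr1d1-/- libraries, against 21.4 and 8.95 CPM in the Nr1d1+/+ libraries (log2 fold 2.62, SE 0.46, edgeR adjusted p = 0.00463). Dcx, doublecortin, a microtubule-binding protein of migrating neurons, rose to 34.1 and 27.1 CPM, against 11.9 and 12.2 CPM (log2 fold 1.34, SE 0.24, edgeR adjusted p = 0.00492). Both held in every fit that left out 1 library. Elavl3, a neuronal RNA-binding protein, had a log2 fold of 2.10 and Mapt, the tau gene, 1.76, with edgeR adjusted p-values of 0.014 and 0.0146. Elavl3 missed the threshold without Nr1d1-/- replicate 1 (0.0547) and both missed it without Nr1d1+/+ replicate 2 (0.0565 and 0.0892). The number called in this list was 3 without Nr1d1-/- replicate 1 and 2 without Nr1d1+/+ replicate 2, and without Nr1d1-/- replicate 2 there were 9 rises and 2 falls.

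Genes of central excitatory and inhibitory neurons, a list that also holds Camk2a, had 5 rises and no fall among the 11 others tested. Gria1, an AMPA glutamate receptor subunit, rose to 296 and 218 CPM in the Nr1d1-/- libraries, against 79.1 and 47.6 CPM in the Nr1d1+/+ libraries (log2 fold 2.02, SE 0.27, edgeR adjusted p = 0.00228), and all Nr1d1-/- values were above all Nr1d1+/+ values. Neurod6, a transcription factor of forebrain neurons, Slc17a8, a vesicular glutamate transporter, and Gad2, which makes GABA, had log2 folds of 1.88, 1.70 and 1.25 (edgeR adjusted p = 0.0154, 0.0185 and 0.0282). None of these 3 passed without Nr1d1+/+ replicate 2 (edgeR adjusted p = 0.105, 0.133 and 0.155), nor did Gad2 without Nr1d1-/- replicate 1 (0.122) or when scaled by library size alone (0.081). Slc17a7 and Gad1, which define excitatory and inhibitory neurons, stayed at or under 2.92 and 0.615 CPM. Without Nr1d1+/+ replicate 2 only 1 gene of this list was called, and without Nr1d1-/- replicate 1 there were 3.

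Of the autonomic and sensory neuron genes beside Npy, 7 of 25 were tested, 3 rose and none fell, and 16 of the 25 were under 1 CPM in every library. Chat, which makes acetylcholine, rose to 14.1 and 4.65 CPM in the Nr1d1-/- libraries, against 2.03 and 0.67 CPM in the Nr1d1+/+ libraries (log2 fold 2.76, SE 0.66, edgeR adjusted p = 0.0137). Ntrk2, a neurotrophin receptor, had a log2 fold of 1.62 (edgeR adjusted p = 0.0227) and Slc6a2, the noradrenaline transporter, 1.95 (0.0334). Ntrk2 did not pass without Nr1d1-/- replicate 1 (0.136) or Nr1d1+/+ replicate 1 (0.0642), and Slc6a2 passed in the fit that left out Nr1d1-/- replicate 1 but in none of the other 3 (0.0799 to 0.218), nor when scaled by library size alone (0.0651), with no filter (0.0587) or by DESeq2 (0.0579). With Nr1d1+/+ replicate 1 left out, 1 gene of the list was called higher, and with any of the other 3 left out there were 2, with 1 fall without Nr1d1-/- replicate 2. Among neuroendocrine genes 1 of 3 tested rose, the transcription factor Insm1, at 84.6 and 56.8 CPM in the Nr1d1-/- libraries against 20.0 and 12.8 CPM in the Nr1d1+/+ libraries (log2 fold 2.11, SE 0.29, edgeR adjusted p = 0.00241). Chga, the granule protein that defines these cells, had 0 and 2.36 CPM in the Nr1d1-/- libraries, against 0.284 and 0.191 CPM in the Nr1d1+/+ libraries.

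Schwann and satellite glia genes, the class of Cdh19, S100b and Mbp, went both ways, with 5 rises and 1 fall in 18 tested. Ngfr, a neurotrophin receptor of glia that basal epithelium also makes, rose to 16.1 and 16.3 CPM, against 4.87 and 6.13 CPM (log2 fold 1.55, SE 0.29). Drp2, a dystrophin-related protein of myelinating Schwann cells, rose to 10.7 and 7.76 CPM, against 2.56 and 2.73 CPM (log2 fold 1.80, SE 0.37). Gldn, of the node of Ranvier, had a log2 fold of 3.65 from levels under 3 CPM (edgeR adjusted p = 0.0118, and 0.107 without Nr1d1+/+ replicate 2). Erbb3, the neuregulin receptor of Schwann cells and of mammary epithelium, fell to 13.4 and 8.07 CPM in the Nr1d1-/- libraries, against 29.5 and 49.7 CPM in the Nr1d1+/+ libraries (log2 fold -1.89, SE 0.34, edgeR adjusted p = 0.00491). Without Nr1d1+/+ replicate 2, 3 genes of this list were called higher. Astrocyte genes beside S100b had 1 rise among 5 tested: Slc1a2, a glutamate transporter, with a log2 fold of 0.96 (edgeR adjusted p = 0.0115, and 0.0622 when scaled by library size alone). Without Nr1d1+/+ replicate 1 the list had 2 rises, and without Nr1d1-/- replicate 1 it also had 1 fall. Of 13 oligodendrocyte genes beside Mbp, 9 stayed under 1 CPM in every library, and 4 of these had no count. In this list 5 were tested, with 1 rise and no fall. The 13 genes summed to 685 and 362 CPM in the Nr1d1-/- libraries, against 193 and 109.5 CPM in the Nr1d1+/+ libraries. With 9 of the 13 under 1 CPM, these sums come almost wholly from the few others and do not describe the whole list. The median log2 fold of the 5 tested genes was 0.30.

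**Figure D4:**
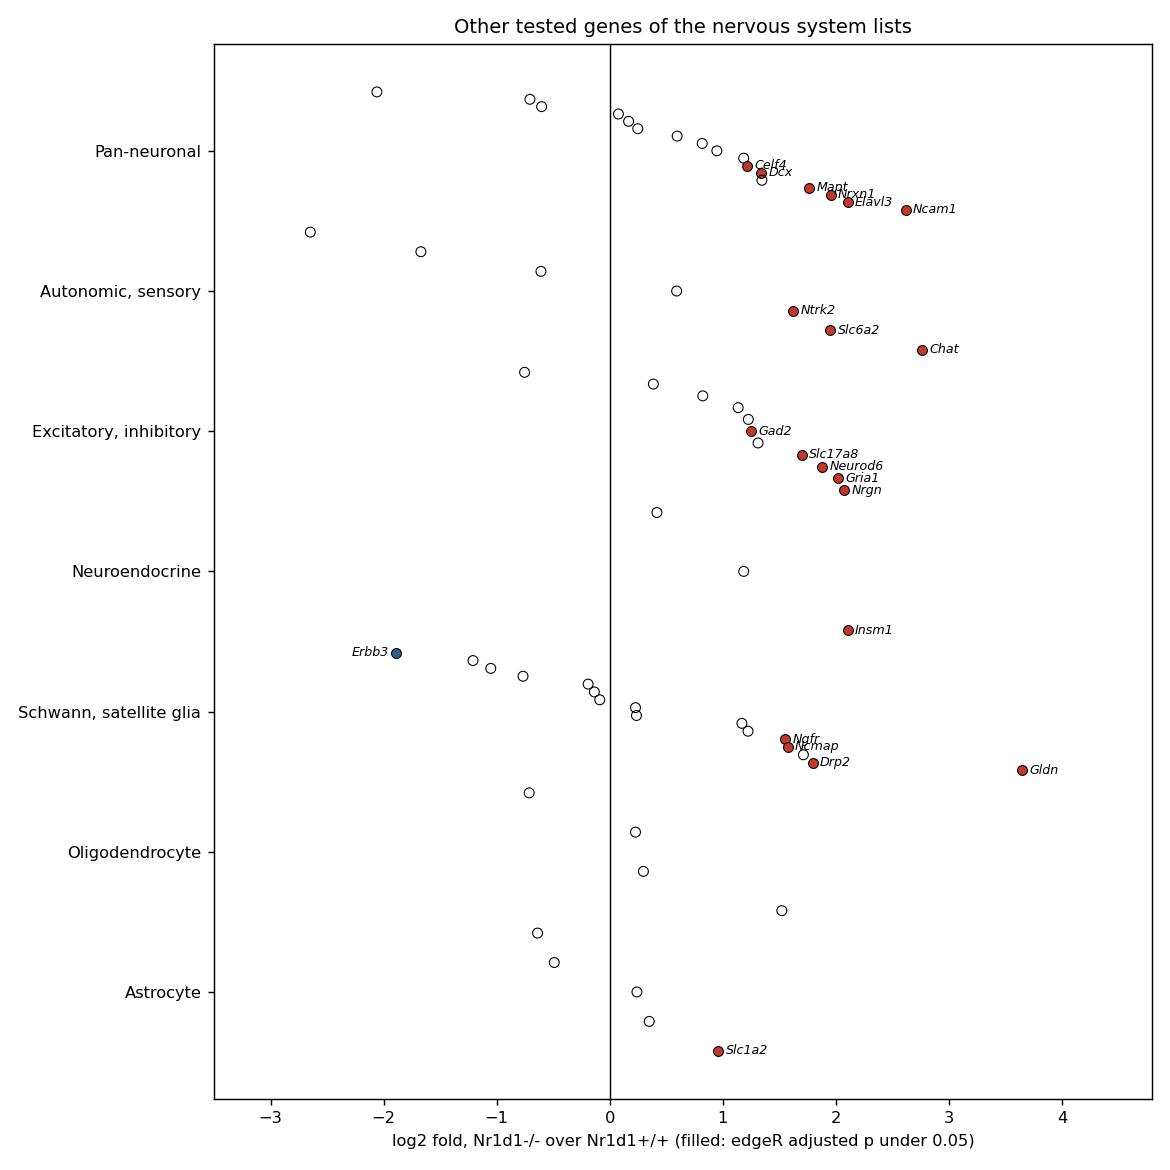
Log2 fold (Nr1d1-/- over Nr1d1+/+) of each tested gene of the 7 lists other than the 9 genes, with filled points where the edgeR adjusted p was under 0.05 (red higher, blue lower) and the symbol beside them. The genes that rose carry red points on the right, Gldn farthest out at 3.65, and Erbb3 is the only filled point on the left, and genes not reported here are left out.

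The ligand Npy was read beside its receptors and processing enzymes. Of 12 other genes of this system 4 were tested, 1 rose and 2 fell, and 6 had no count in any library, among them the receptors Npy2r and Npy5r and the related peptide Pyy. Npy1r, the Y1 receptor, rose to 14.4 and 9.43 CPM in the Nr1d1-/- libraries, against 4.97 and 2.73 CPM in the Nr1d1+/+ libraries (log2 fold 1.62, SE 0.40, edgeR adjusted p = 0.0156). It missed the threshold without Nr1d1-/- replicate 1 (0.0513) and without Nr1d1+/+ replicate 2 (0.0919). Dpp4, a peptidase that trims neuropeptide Y, fell to 4.11 and 9.12 CPM in the Nr1d1-/- libraries, against 21.7 and 24.9 CPM in the Nr1d1+/+ libraries (log2 fold -1.80, SE 0.36, edgeR adjusted p = 0.00732). Pam, which amidates peptides, fell with a log2 fold of -0.64 (edgeR adjusted p = 0.0469), a call that was lost in every fit without 1 library (adjusted p of 0.0618 to 0.25) and with GC and length trends removed (0.142).

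Relatives of Camk2a went both ways. Of 12 other genes of calmodulin-dependent signalling that were tested, 3 rose and 2 fell, beside 16.5% higher and 17.3% lower over all tested genes. For this family, that of Npy and those below, counts of so few genes are a description. They were not tested against these shares. The widely expressed kinase subunits Camk2d and Camk2g both fell: Camk2d had 7.11 and 10.4 CPM in the Nr1d1-/- libraries against 21.0 and 21.4 CPM in the Nr1d1+/+ libraries (log2 fold -1.27, SE 0.28, edgeR adjusted p = 0.0104). Camk2g had a log2 fold of -0.78 (edgeR adjusted p = 0.0484), and this call was lost in every fit without 1 library (0.0886 to 0.188). With GC and length trends removed neither passed (edgeR adjusted p = 0.064 and 0.073). Camk4, a nuclear kinase of neurons and T cells, rose to 27.6 and 15.2 CPM, against 7.71 and 4.79 CPM (log2 fold 1.77, SE 0.37, edgeR adjusted p = 0.00886), and Camk2b, the other neuronal subunit, stayed under 1 CPM.

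Relatives of Map2 and Stmn2 also went both ways, with 3 rises and 1 fall among 9 tested. Dcx and Mapt rose as given above. Map1a, a microtubule-associated protein of mature neurons, rose to 21.0 and 7.94 CPM in the Nr1d1-/- libraries, against 3.26 and 3.73 CPM in the Nr1d1+/+ libraries (log2 fold 2.04, SE 0.47, edgeR adjusted p = 0.0128), but its log2 fold was 1.18 without Nr1d1-/- replicate 1 (0.0544). Map7, an epithelial microtubule-binding protein, fell to 31.2 and 26.6 CPM, against 59.9 and 74.5 CPM (log2 fold -1.22, SE 0.21, edgeR adjusted p = 0.00432). Map2 thus had the direction of Map7 and not that of Mapt, Map1a and Dcx. Stmn3 and Stmn4, the other neuronal stathmins, stayed under 1 CPM.

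Among splicing factors related to Rbfox3 or acting beside it, 3 of 10 tested rose and 3 fell. Nova2, a neuronal splicing factor, rose to 50.6 and 34.5 CPM in the Nr1d1-/- libraries, against 10.6 and 6.85 CPM in the Nr1d1+/+ libraries (log2 fold 2.28, SE 0.30, edgeR adjusted p = 0.00224). The widely expressed paralog Rbfox2 fell with a log2 fold of -0.78 (edgeR adjusted p = 0.0321), and the polypyrimidine tract binding proteins Ptbp2 and Ptbp3, repressors of alternative exons, fell with -1.37 (0.0164) and -0.74 (0.0124). With GC and length trends removed these 3 no longer passed (edgeR adjusted p = 0.114, 0.111 and 0.532), and none passed without Nr1d1+/+ replicate 2 (0.15, 0.0835 and 0.0546), in which fit 1 gene of the list rose, and without Nr1d1-/- replicate 1 the list had 1 rise and 1 fall. REST, a repressor of neuronal genes in non-neuronal cells, was measured with its cofactors, of which 1 of 10 rose and 2 fell, REST included. Rest fell to 1.39 and 2.67 CPM, against 6.58 and 12.0 CPM (log2 fold -2.16, SE 0.48, edgeR adjusted p = 0.0107, and 0.0751 without Nr1d1+/+ replicate 2). Its corepressor gene Rcor1 fell to 1.03 and 3.97 CPM in the Nr1d1-/- libraries, against 12.9 and 19.1 CPM in the Nr1d1+/+ libraries (log2 fold -2.63, SE 0.50, edgeR adjusted p = 0.00594), and kept its call in every fit without 1 library. The methyltransferase gene Ehmt2 rose with a log2 fold of 0.79 (edgeR adjusted p = 0.00972), and missed the threshold without Nr1d1+/+ replicate 2 (0.061), which left the list with no rise and 1 fall, when scaled by library size alone (0.0773) and with trends removed (0.0555).

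**Figure D5:**
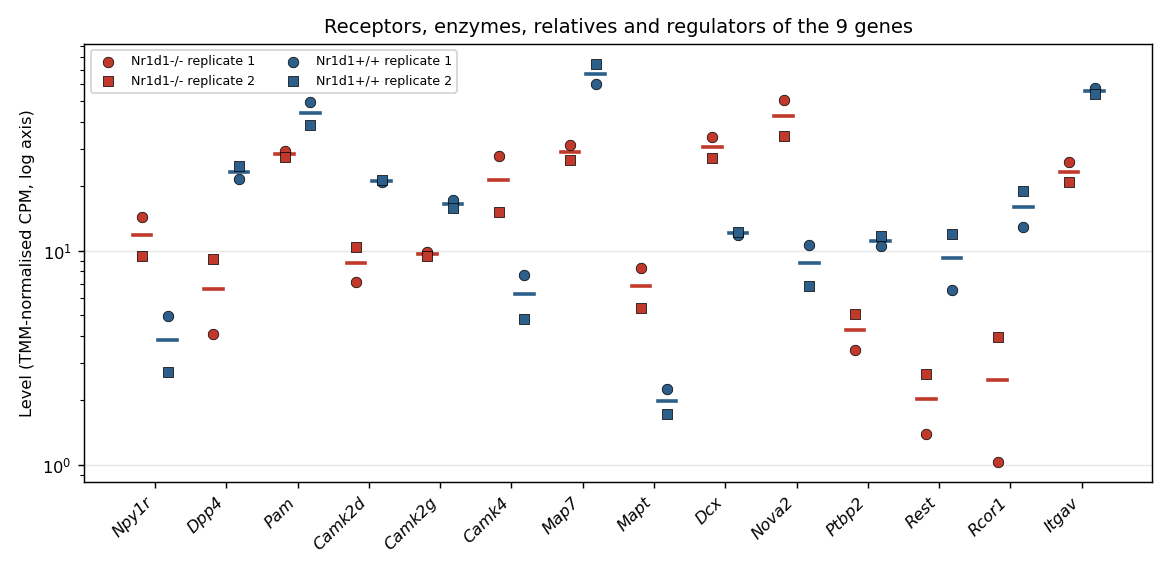
TMM-normalised CPM (log axis) of 14 genes related to the 9, with Nr1d1-/- libraries in red at the left of each pair, Nr1d1+/+ libraries in blue at the right and bars for the mean of 2. Npy1r, Camk4, Mapt, Dcx and Nova2 have higher values in both Nr1d1-/- libraries, and the other 9 genes have lower ones, Rcor1 by the most, at 1.03 and 3.97 CPM against 12.9 and 19.1 CPM.

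The relatives of Mbp, Cdh19 and Thy1 were counted likewise. Of 11 tested myelin genes other than Mbp, 2 rose and 2 fell, with a median log2 fold of -0.09, and 1 rose without Nr1d1-/- replicate 1 or without Nr1d1+/+ replicate 2. Mpzl3, an immunoglobulin-like membrane protein, fell to 0.44 and 0.62 CPM in the Nr1d1-/- libraries, against 2.18 and 3.64 CPM in the Nr1d1+/+ libraries (log2 fold -2.42, SE 0.65, edgeR adjusted p = 0.021, and 0.196 without Nr1d1+/+ replicate 2, where none of the list fell). None of the 5 tested type II cadherins other than Cdh19 passed by edgeR, and 8 of the 12 stayed under 1 CPM in every library. Of 9 tested partners of Thy1, 1 fell and none rose. That gene was Itgav, the integrin αv subunit that binds Thy1, with 26.0 and 20.8 CPM in the Nr1d1-/- libraries against 57.4 and 54.1 CPM in the Nr1d1+/+ libraries (log2 fold -1.25, SE 0.21, edgeR adjusted p = 0.00391).

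Likeness of pattern was measured as the root-mean-square distance between centred log2 CPM profiles over the 4 libraries, among tested genes averaging 5 CPM or more. With 4 points many genes lie close, and the distances are a description. The genes nearest to Camk2a were 5930403L14Rik (distance 0.0143) and Scn2a1 (0.0289). Scn2a1, a voltage-gated sodium channel, had 111 and 76.8 CPM in the Nr1d1-/- libraries against 28.0 and 19.01 CPM in the Nr1d1+/+ libraries. Nearest to Map2 were Rnf145, Grhl2 and Rab2b (0.0197 to 0.0323), and nearest to Mbp were Zwint, Rrm2 and Abcc9 (0.0138 to 0.0293). S100b lay closest to S100g (0.093), Cplx2 and Klk14, and Cdh19 closest to Ctns (0.0655), Npepps and AW549877. Rbfox3 was closest to Ezh1 (0.0524), Stmn2 to Tspan18 (0.0463) and Thy1 to Txnrd2 (0.0287). Npy had no close match: Hoxb4, a homeobox gene, was nearest at 0.714, with 5.72 and 24.4 CPM in the Nr1d1-/- libraries against 1.42 and 0.766 CPM in the Nr1d1+/+ libraries.

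Marker lists of other cell types were counted in the same way, beside the 33.9% of all tested genes that were called, and their part in the values above was not tested. Basal and myoepithelial genes had 5 rises and 1 fall among 8 tested, with no fall without Nr1d1-/- replicate 1, and summed to 377 and 520 CPM in the Nr1d1-/- libraries, against 163 and 177 CPM in the Nr1d1+/+ libraries. Skeletal muscle genes had 5 rises among 6 tested, and 1 without Nr1d1-/- replicate 1. Adipocyte genes, a class that also makes S100b, had 4 rises among 9 tested, and 2 without Nr1d1-/- replicate 1, with sums of 204 and 132 CPM in the Nr1d1-/- libraries against 43.5 and 80.4 CPM in the Nr1d1+/+ libraries. Endothelial genes had 5 rises among 10 tested, with sums of 84.1 and 124 CPM against 53.3 and 62.7 CPM. Smooth muscle genes had 3 rises among 9 tested, and 5 without Nr1d1-/- replicate 1, with sums of 170 and 244 CPM against 77.6 and 103 CPM. Of 9 tested luminal epithelial genes, 4 rose and 2 fell, and 1 fell without Nr1d1-/- replicate 1. Of 10 tested macrophage genes, 3 rose and 1 fell. Luminal genes summed to 9956 and 9138 CPM against 6407 and 5501 CPM. Macrophage genes summed to 365.5 and 448.8 CPM against 288.1 and 320.6 CPM. Both Nr1d1-/- sums were above both Nr1d1+/+ sums for the basal, adipocyte, endothelial, smooth muscle, skeletal muscle, luminal, macrophage and T cell lists. The fibroblast and melanocyte lists did not share this. Calls were fewer in the lists that follow. T cell genes, a class that makes Thy1, had 2 rises among 9 tested and summed to 25.7 and 24.9 CPM against 15.57 and 19.5 CPM. Fibroblast genes, another such class, had 1 rise among 10 tested, with sums of 1072 and 1146 CPM against 613 and 1129 CPM. Melanocyte genes, which share neural crest origin with Schwann cells, had no call among 3 tested by edgeR and summed to 19.9 CPM in both Nr1d1-/- libraries, against 22.9 and 20.3 CPM in the Nr1d1+/+ libraries, with Slc45a2, Tyrp1 and Gpr143 at 0 in all 4.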

How the data were processed

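Trizol-extracted total RNA went into stranded SMARTer libraries, per the labels' protocols. The authors deposited raw counts per gene symbol; reads had been aligned with TopHat to mm10, per the submitters' processing notes. Not given in the sources used here: tool versions, the counter, its annotation and its use of strand. Of 23238 symbols, 22197 were joined directly and 669 by synonym to GENCODE M21 (GRCm38). EdgeR 4.0.16 (R 4.3.3) was run with filterByExpr (minimum count 10), TMM factors (0.859, 0.895, 1.11 and 1.18 in Nr1d1-/- and then Nr1d1+/+ replicates 1 and 2) and the quasi-likelihood F test (legacy=FALSE, genotype only, 2 residual degrees of freedom), with Benjamini-Hochberg adjustment over 14801 genes, and was tested on simulated data. GC and length trends were removed with splines of 5 degrees of freedom for 14651 genes. Other alternatives were DESeq2 1.42.0, other scalings and filters, the older estimate, a replicate block and leaving out each library. Intervals and floors cover counting error only. The rule named the 9 genes, Nr1d1, family members, fixed defining markers and up to 4 passing genes per list and direction, lowest p first. Some family genes that passed are given in counts only. Members and lists were chosen with earlier results of these data known. Some genes of the lists are not reported here by name.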

Additional observations from a re-analysis of the deposited data

How the results depend on the processing

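Counts of calls depended on scaling and on single libraries. Of all tested genes, 2446 were higher and 2565 lower under the null label. Scaling by library size alone gave 1281 higher and 4410 lower, and with GC and length trends removed there were 1712 and 1708. Leaving out 1 library gave 1212 to 2463 higher and 1277 to 2548 lower, with the lowest counts without Nr1d1+/+ replicate 2. Among the other nervous system genes, 13 rose under the filter of 5 CPM on the mean and 10 to 25 when 1 library was left out, while 5 fell with library size only, 3 with trends removed, 2 with the replicate block and 1 to 4 when 1 library was left out. With library size only, the log2 fold was -1.76 for Map2, -2.14 for Rbfox3, -2.42 for Cdh19, 2.08 for S100b, -0.74 for Mbp and -0.091 for Thy1. With trends removed it was -1.01 for Map2, -1.55 for Cdh19 and -0.19 for Thy1. For Map2 it was -1.41 with no filter and -1.34 under the 5 CPM filter, which left out Rbfox3 and Stmn2. Leaving out 1 library gave 2.46 to 5.91 for Npy, -1.42 to -1.37 for Map2, 1.07 to 2.01 for Stmn2, -0.60 to -0.14 for Mbp and 0.0073 to 0.51 for Thy1. Nr1d1 ranged over -0.79 to 0.15 and changed sign without Nr1d1+/+ replicate 1. The cause of these shifts was not tested. A lone library left in a group was assumed to vary like the other group. Of 38 named list genes tested, 15 kept direction and call in every alternative that gave a value. Deviations of samples with the same replicate number had a correlation of 0.026 across genes. This single value cannot exclude a pairing that touches only some genes. The replicate block gave 2622 higher and 2704 lower genes and ended the call of Camk2g (edgeR adjusted p = 0.0582).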
